A study of Mus musculus with 8 samples.

Results

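The data described here are the culture response of WT CD8+ T cells: the difference between 2 samples taken after 5 days of culture (day 5) and 2 samples taken before culture (day 0). They are the 4 WT samples among the 8 of the series, chosen by their labels alone. All 8 came from the spleen of C57BL/6 mice and were sorted as peripheral CD8+ T cells, the lineage of T lymphocytes that kills infected and transformed cells. The other 4 samples, 2 per day, were labelled KO and came from a *Satb1* F/F; *E8I-cre* background, in which a recombinase driven by a *Cd8a* enhancer acts in mature CD8 lineage cells. The labels do not say which alleles the WT mice carried, whether animals were pooled, or whether the samples of a group came from separate animals, so the p-values measure the spread between these samples, which may be technical. The series title calls the cells stimulated in vitro. The stimulus, the medium and any added cytokine are not given in the sources used here.

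A resting CD8+ T cell is small, does not divide and recirculates through lymph nodes, and transcription factors such as TCF-1, LEF1, FOXO1 and KLF2 hold it in this state. When its receptor and costimulatory receptors are engaged, it grows, takes up glucose and amino acids, copies its genome and divides, and it comes to carry granules of perforin and granzymes. Growth relies on glycolysis with lactate release and on new lipid, nucleotide and protein synthesis. Each of these programmes is read below through a list of genes known for it.

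Between 4170126 and 6180044 reads per WT sample were counted on genes, and a count of 3 corresponded to 0.529 to 0.723 CPM (counts scaled to a common library size), the unit of level used throughout. Replicates were alike across genes (Pearson r of log2 CPM 0.976 at day 0 and 0.975 at day 5), while samples of different days correlated at 0.805 to 0.813. Reads that aligned to several places made up 33.5% to 34.5% of records at day 0 and 35.8% to 37.4% at day 5 and were not counted, so genes with near-identical copies are represented by their unique stretches only. The CD8+ T-cell identity was present on both days: *Cd8a* had 1455 and 1405 CPM at day 0 and 832 and 734 CPM at day 5, and *Cd3e* had 1064 and 1067 CPM at day 0 and 568 and 569 CPM at day 5. In bulk samples, fewer cells of a type and less RNA per cell cannot be told apart. Every level is a share of the counted reads and RNA per cell was not measured, so each rise or fall is relative to the other genes.

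Of 12597 genes tested, 6081 (48.3%) differed between day 5 and day 0 in WT cells at a false discovery rate (FDR) under 0.05 by the edgeR quasi-likelihood test. Higher levels at day 5 were called for 3112 genes (24.7%) and lower levels for 2969 (23.6%). The called increases had larger estimates than the decreases: 1142 genes rose and 518 fell at least 4-fold, and 490 rose and 90 fell at least 16-fold. Of the tested genes, 85 had no count at day 0 and a further 382 had no more than 3 in any sample. The same numbers at day 5 were 28 and 199, and folds from such levels are poorly determined. The median log2 fold change was 1.40 among the genes called higher, -1.15 among those called lower and -0.04 over all tested genes. By annotated type, processed pseudogenes stood apart in their few decreases, with 18 of 488 lower (3.69% against 23.6%). Another 111 were higher (22.7%, near the 24.7% over all genes). Reads shared with their parent genes make single values uncertain. Of 265 intergenic long noncoding RNAs, 49 were higher (18.5%) and 62 lower (23.4%, near the share over all genes). Scaling by library totals alone, without the correction for composition (TMM), moved that overall median to -0.17 and the calls to 2668 higher and 3560 lower, so changes of this order have no fixed sign. Gene lists are read against the shares of 24.7% and 23.6%, and no list was tested as a set.

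**Figure D1:**
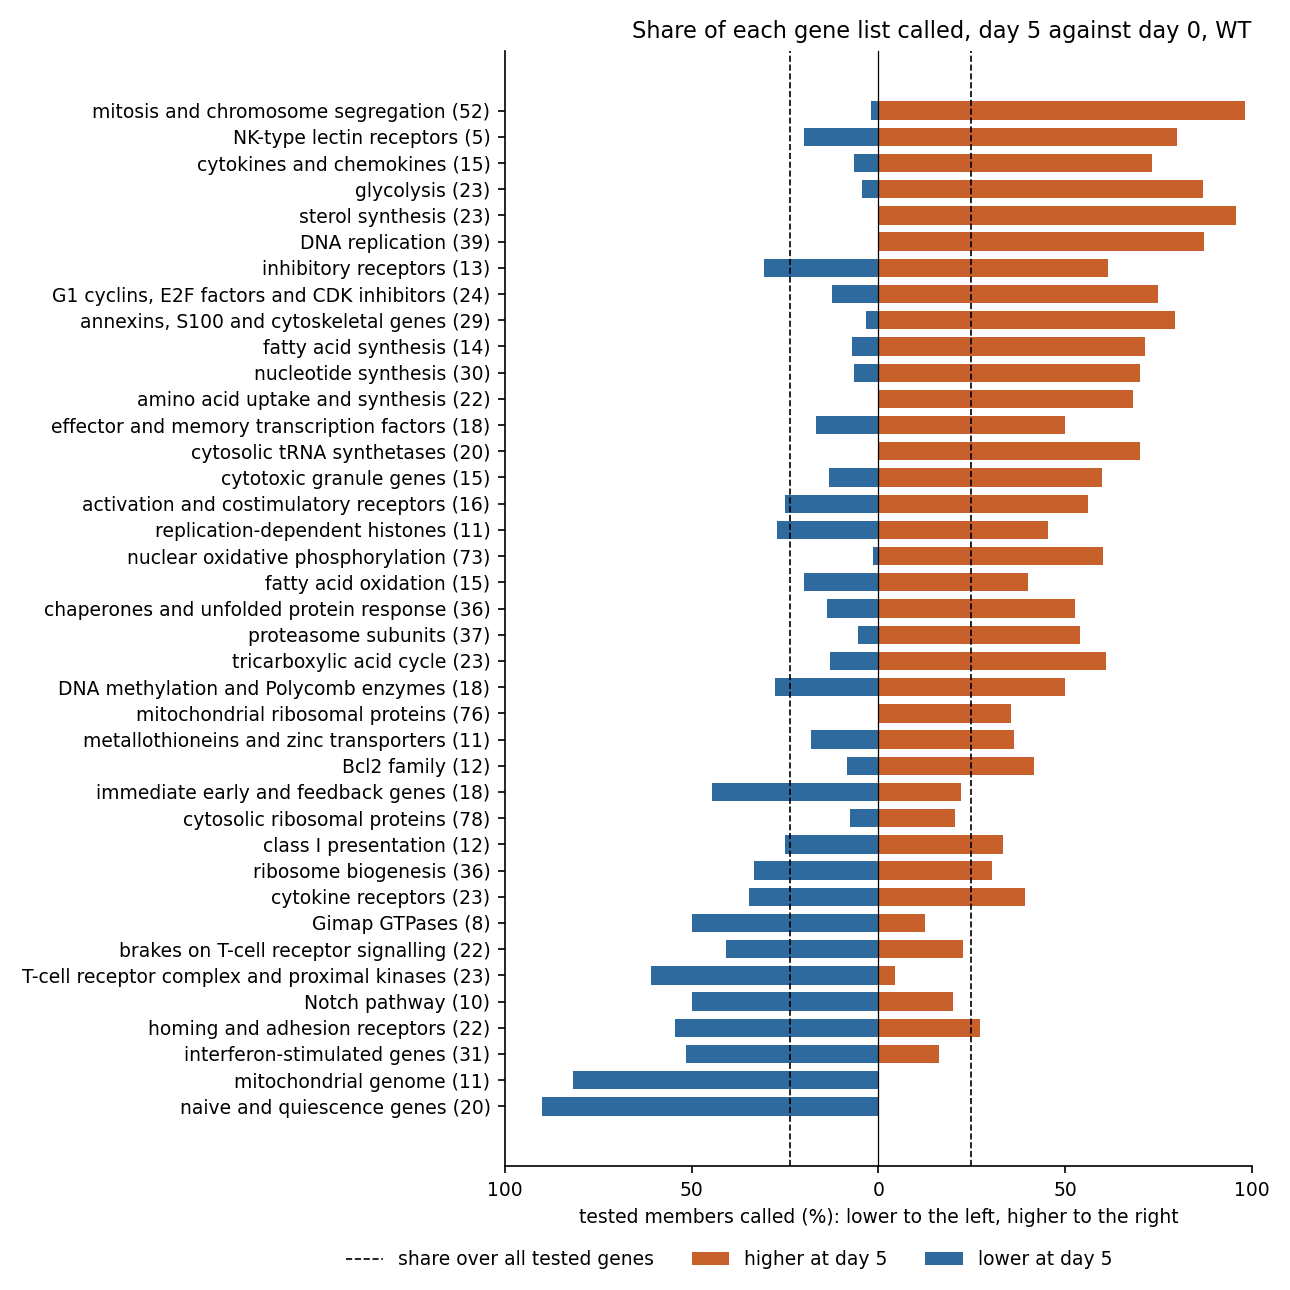
Share of the tested members of each gene list (number tested in parentheses) called higher (right, orange) or lower (left, blue) at day 5 against day 0 in WT cells, in percent, ordered by median log2 fold change, with dashed lines at the shares over all tested genes (24.7% higher, 23.6% lower). Mitosis genes stand at the top with 51 of 52 members higher, and naive and quiescence genes at the bottom with 18 of 20 lower.

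Most genes with the largest fitted log2 fold change had no count at day 0, and for these the fitted value is not a measured fold. By the lower bounds given below, they are not shown to have risen more than *Gzmb* (1308-fold). *Esco2*, the acetyltransferase that ties sister chromatids together, had no count in either day 0 sample and 219.9 and 209 CPM at day 5, at least 353-fold higher than the floor of 3 counts per sample. *Mt1*, a metallothionein that binds zinc and copper, went from no count to 109 and 65.3 CPM (at least 143-fold higher). *Scd1*, which places the double bond in newly made fatty acids, went from no count to 43.4 and 52.3 CPM (at least 78.8-fold higher). Among the WT samples, reads for these 3 genes were thus found at day 5 only. *Trim16*, a ubiquitin ligase family member, went from no count to 74.6 and 52.5 CPM (at least 105-fold higher). *Lrrc32*, the surface docking protein for latent TGF-β better known as GARP, went from no count to 49.2 and 36.4 CPM (at least 70.5-fold higher). The same pattern of no count at day 0 held for *Pilrb1*, *Fam183b* and *Gzmk*, with lower bounds of 74.6-fold, 73.5-fold and 49.2-fold.

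*Ifitm1*, a membrane protein that restricts virus entry, had 0.179 and 0 CPM at day 0, a single read in all, and 768 and 435 CPM at day 5. The ratio of its summed counts was 6284 (counting interval 1128 to 248263), an interval that covers counting error only. *Gzmb* (GRCm38 chr14:56258838-56262260), the granzyme that starts apoptosis in target cells, had 3.22 and 3.84 CPM at day 0 and 4807 and 4429 CPM at day 5. Its log2 fold change was 10.36 ± 0.18 (SE; FDR 3.09e-12), a 1308-fold increase in mean CPM with replicates on each day close together.

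By difference in CPM, not corrected for length, the largest gains beside *Gzmb* were in enzymes of glycolysis. *Eno1*, enolase, had 871 and 952 CPM at day 0 and 7188 and 5067 CPM at day 5. *Pkm*, pyruvate kinase, had 638 and 730.1 CPM at day 0 and 6229 and 4740.4 CPM at day 5. *Aldoa*, aldolase, had 444 and 468 CPM at day 0 and 5498 and 5781 CPM at day 5. *Ldha*, the lactate dehydrogenase subunit that favours lactate production, had 622 and 673 CPM at day 0 and 5299 and 3742 CPM at day 5. In each of the 4 genes both day 5 samples lay above both day 0 samples by several fold, with log2 fold changes between 2.75 and 3.63. Corrected for exon length, *Gzmb* rose from 2.46 to 3216 CPM per kilobase and ranked among the 10 genes of highest level per length at day 5, beside *B2m*, *Tmsb4x* and *Nkg7*.

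The largest decreases left most of the genes at a few reads per sample. *Ccr9* (GRCm38 chr9:123678439-123784330), the chemokine receptor for gut homing, had 272 and 262 CPM at day 0 and 0.529 and 0.241 CPM at day 5. The day 0 to day 5 ratio of its summed counts was 658 (counting interval 257 to 2415). Exons of the other strand cover 19.0% of its exon length, and the strand setting of the counting is not given in the sources used here. *Dtx1*, a Notch pathway regulator, had 88.2 and 85.9 CPM at day 0 and 0.353 and 0.482 CPM at day 5, with a day 0 to day 5 ratio of 214 (counting interval 83.3 to 787). *Xkrx*, a membrane protein of the XK family, had 87.6 and 78.01 CPM at day 0 and 0.353 and 0 CPM at day 5, with a ratio of 409 (counting interval 113 to 3386). *Cxcr5*, the receptor for B-cell follicles, had 13.2 and 11.3 CPM at day 0 and 0 and 0.241 CPM at day 5, with a ratio of 122 (counting interval 21.4 to 4841).

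*Gpr83*, an orphan-type G protein-coupled receptor, fell from 103 and 111 to 1.41 and 1.2 CPM. *Adh1*, an alcohol dehydrogenase, fell from 40.4 and 43.2 to 0.705 and 0.482 CPM. *Slc16a5*, a monocarboxylate transporter family member, fell from 114 and 142 to 1.41 and 3.86 CPM. *Fam101b* (log2 fold change -6.33 ± 0.24), *Ramp3* (ratio 161 (counting interval 28.5 to 6391)) and *Scg5* (ratio 70.6 (counting interval 19.2 to 589)) completed the 10 largest decreases. The largest losses by difference in CPM were in other genes: *mt-Cytb*, *Malat1*, *Shisa5*, *Cd8b1* and *Arhgdib*. *Malat1*, a nuclear long noncoding RNA, had 6393 and 6078 CPM at day 0 and 2129.5 and 2337 CPM at day 5 (log2 fold change -1.48 ± 0.11, FDR 2.69e-07). *Shisa5*, an endoplasmic reticulum protein linked to p53-dependent death, had 4420.2 and 4639 CPM at day 0 and 1193 and 1031 CPM at day 5 (log2 fold change -2.03 ± 0.11, FDR 1.52e-08).

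**Figure D2:**
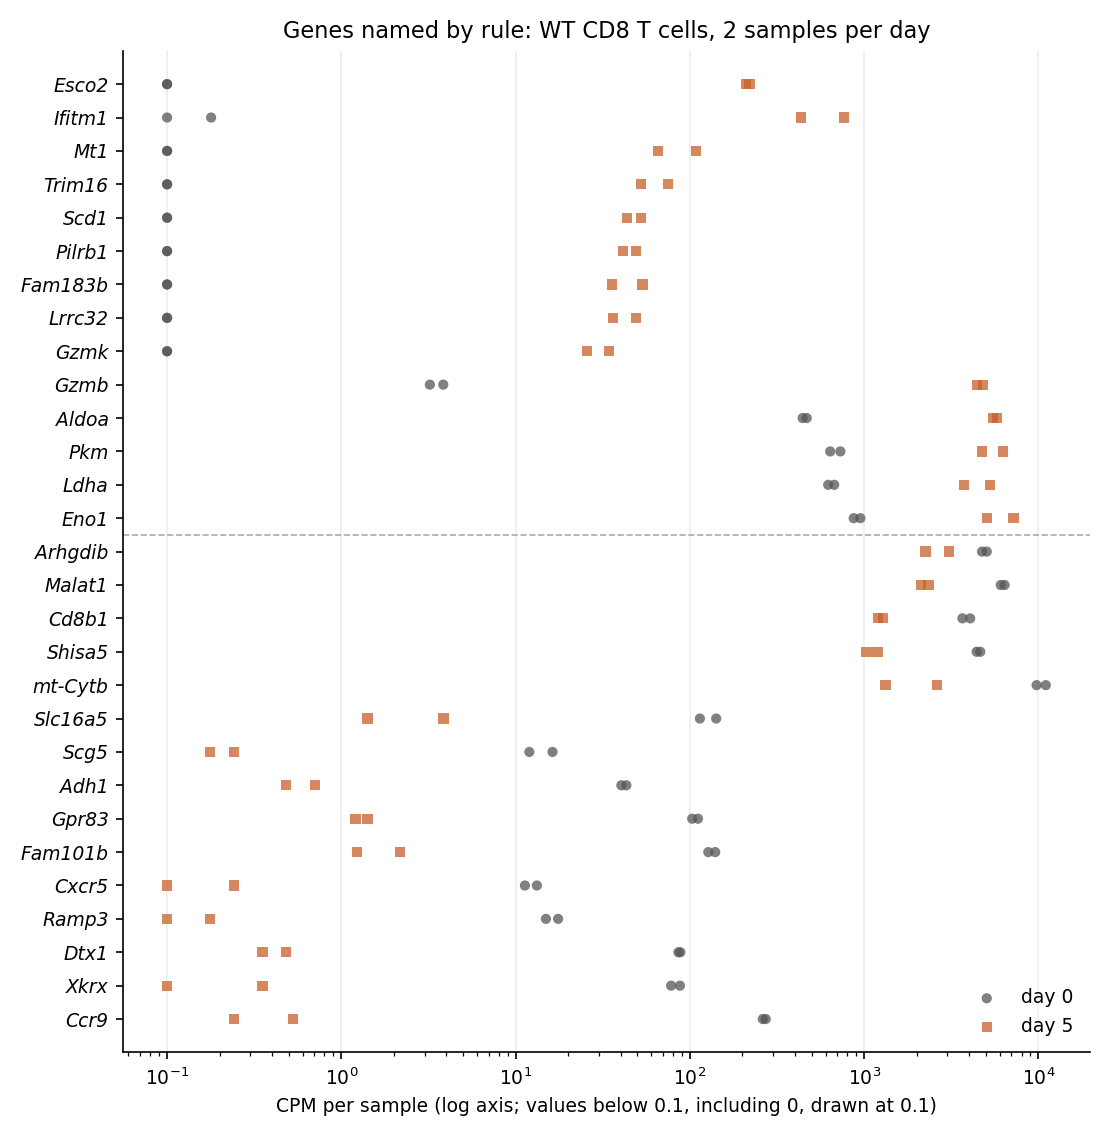
Level of each gene with the largest log2 fold change or the largest CPM difference in WT cells, in CPM on a log axis, with grey circles for the 2 day 0 samples and orange squares for the 2 day 5 samples; values below 0.1 CPM, including 0, are drawn at 0.1. Above the dashed line every day 5 sample lies above every day 0 sample, and below it the order is the opposite.

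Genes of cell division rose almost without exception. Of 52 genes for mitosis and chromosome segregation, all tested, 51 rose and 1 fell (98.1% higher against 24.7% of all genes), and the median log2 fold change of the list was 6.12. Their summed level went from 1045.5 and 1038 CPM at day 0 to 17088 and 18007 CPM at day 5. *Cdk1* (GRCm38 chr10:69335146-69352938), the kinase that drives entry into mitosis, had 0.894 and 0.678 CPM at day 0 and 243 and 291 CPM at day 5 (log2 fold change 8.35 ± 0.24, FDR 1.04e-10). *Top2a*, which untangles replicated DNA, had 20.03 and 19.4 CPM at day 0 and 2476 and 2454 CPM at day 5. *Mki67*, the proliferation marker Ki-67, had 4.29 and 0.904 CPM at day 0 and 539 and 573 CPM at day 5. The day 0 level of *Cdk1* rested on 5 and 3 reads, against 1377 and 1206 reads at day 5, and *Top2a* was the one of the 3 with a clear level before culture.

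Further members act on the spindle. *Aurkb*, the kinase of the chromosomal passenger complex, rose from 0.179 and 1.13 to 344 and 338 CPM. *Plk1*, which matures the centrosomes, rose from 0.894 and 1.58 to 231 and 234 CPM. *Kif11*, the motor that separates the spindle poles, rose from 2.15 and 2.49 to 267 and 399 CPM. *Birc5*, survivin, rose from 3.04 and 2.71 to 594 and 553 CPM. All 4 had log2 fold changes between 7.16 and 9.10, of which the value of *Aurkb* became 8.22 without day 0 replicate 1 and 10.75 without day 0 replicate 2. The one member that fell was *Smc4*, a core subunit of condensin, from 437 and 431 to 289 and 345 CPM (log2 fold change -0.45 ± 0.12; a call lost without day 0 replicate 1, at -0.44, or without day 5 replicate 1, at -0.31), while its partner *Smc2* rose from 90.7 and 110.1 to 761 and 712 CPM.

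DNA replication genes rose as a group of 34 of 39, with none lower (87.2% against 24.7%) and a median log2 fold change of 1.93. *Cdc6*, which loads the replicative helicase, had 1.43 and 2.49 CPM at day 0 and 252 and 209 CPM at day 5 (log2 fold change 6.90 ± 0.24, FDR 3.32e-10). *Mcm3*, a helicase subunit, had 103 and 122 CPM at day 0 and 572 and 498 CPM at day 5, and *Mcm7*, another, had 139.5 and 139 CPM at day 0 and 231 and 174 CPM at day 5. The 6 helicase subunits *Mcm2* to *Mcm7* thus ranged from 0.54 to 2.25 on the log2 scale and were not absent before culture. The smallest of these calls, that of *Mcm7*, was lost without either day 0 sample (0.55 and 0.54) and without day 5 replicate 1 (0.34). *Pcna*, the sliding clamp, rose from 78.7 and 71.2 to 331 and 248 CPM. The largest changes of the list after *Cdc6* were in *Mcm10*, which helps to activate the helicase (0.894 and 0.678 to 94.9 and 78.6 CPM), and *Dna2*, a nuclease and helicase of lagging strand synthesis (0.358 and 1.13 to 26.98 and 27.95 CPM). *Cdt1*, *Pold1* and 3 other members did not pass the test. *Pold1*, the catalytic subunit of DNA polymerase delta, rested on single samples: its log2 fold change of 0.64 became 0.11 without day 0 replicate 1 and 1.43, called higher, without day 0 replicate 2. It was also called with a correction for the GC content and exon length of genes and without a filter on low counts.

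The supply of nucleotides followed, with 21 of 30 genes higher and 2 lower. *Rrm2*, the inducible subunit of ribonucleotide reductase, had 6.8 and 5.88 CPM at day 0 and 846 and 933 CPM at day 5 (log2 fold change 7.12 ± 0.20, FDR 1.04e-10), whereas *Rrm1*, its partner, was already at 126 and 120.1 CPM and rose to 1119.8 and 852 CPM. *Tk1*, thymidine kinase, rose from 0.715 and 0.904 to 176 and 132 CPM. *Cad*, which starts pyrimidine synthesis, was among the 2 that fell (14.8 and 18.8 to 10.8 and 7.71 CPM, log2 fold change -0.84 ± 0.29), a call lost without day 0 replicate 2 (-0.66) or day 5 replicate 2 (-0.60), by DESeq2 and with the correction for GC and length, under which no member of the list was called lower. *Mthfd2*, a mitochondrial folate enzyme, rose from 47.9 and 55.8 to 224 and 229.9 CPM.

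Among 24 tested genes of the G1 cyclin, E2F and CDK inhibitor list, 18 rose and 3 fell. *Cdkn1a*, the CDK inhibitor p21, had 0.179 and 0.226 CPM at day 0 and 227 and 202 CPM at day 5, a ratio of summed counts of 1084 (counting interval 299.8 to 8961). *Ccne2*, cyclin E2, rose from 6.98 and 6.11 to 183 and 178 CPM, and *Cdk6* rose from 46.1 and 45.7 to 476 and 405 CPM. *Ccnd2*, cyclin D2, fell from 1621 and 1851 to 968 and 847 CPM (log2 fold change -0.94 ± 0.13). *Mxd4*, a MYC antagonist, also fell (log2 fold change -1.39 ± 0.29). *Myc* rose from 144 and 163 to 457 and 623 CPM. Among epigenetic regulators that follow DNA synthesis, *Uhrf1*, which guides maintenance DNA methylation, rose from 5.72 and 9.27 to 66.7 and 60.2 CPM and *Ezh2*, a Polycomb methyltransferase, from 30.8 and 28.9 to 108 and 124 CPM. *Ezh1* and *Tet1* fell (log2 fold changes -1.34 ± 0.16 and -1.47 ± 0.22). Of the 18 tested genes of that list, 9 rose (50%) and 5 fell (27.8%, near the 23.6% of all genes).

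Promoter sequence gives a feature of some of these groups that the expression values did not use. RefSeq windows (GRCm38.p6) from 250 bases before to 50 bases after a start site were searched on both strands for 6 short motifs in 12 gene lists, and the shares below are descriptions without a test. The letters known for E2F factors, which switch on S phase genes, were taken as TTTCCCGC, TTTGGCGC, TTTGCCGC and TTTCGCGC. A match was found in 13 of 37 windows of the DNA replication list (35.1%, 31 of 39 genes matched to a window), against 744 of 32851 windows of all genes (2.26%) and 469 of 11257 windows of tested genes (4.17%). The cell cycle homology region, TTTGAA, which the DREAM and MuvB complexes recognise in mitotic promoters, was found in 33 of 43 windows of the mitosis list (76.7%, 41 of 52 genes matched), against 17.9% of all windows and 12.5% of those of tested genes. The other cell cycle lists differed among themselves: the G1 list held E2F letters in 25.9% of 27 windows and TTTGAA in 18.5%, while nucleotide synthesis held them in 3.23% and 9.68% of 31 windows, below the shares of tested genes. The CCAAT box, the site of NF-Y, was found in 74.4% of windows of the mitosis list and 84.2% of those of the sterol synthesis list, against 37.4% of all windows. Overlapping matches count as separate matches of one window, so a palindromic site can be read on both strands. The windows of the genes called higher as a whole held E2F letters in 5.34% and TTTGAA in 15.1%, and those of the genes called lower in 2.98% and 10.9%.

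Windows of 2 replication genes (*Mcm6*, chr1:128359656-128359955, minus strand; *Orc1*, chr4:108579204-108579503, plus strand) are printed with the E2F letters or their reverse complement in capitals, and windows of 2 mitosis genes (*Cdk1*, chr10:69352863-69353162, minus strand; *Kif11*, chr19:37376132-37376431, plus strand) with TTTGAA or its reverse complement in capitals, to show how the matches sit near the start site. They were chosen among the windows that hold a match.
Mcm6: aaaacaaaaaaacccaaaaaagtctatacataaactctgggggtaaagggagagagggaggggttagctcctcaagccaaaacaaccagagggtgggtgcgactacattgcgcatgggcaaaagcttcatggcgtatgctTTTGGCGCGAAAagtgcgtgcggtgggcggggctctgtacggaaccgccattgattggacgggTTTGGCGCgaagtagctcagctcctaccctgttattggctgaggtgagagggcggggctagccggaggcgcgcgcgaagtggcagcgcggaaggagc
Orc1: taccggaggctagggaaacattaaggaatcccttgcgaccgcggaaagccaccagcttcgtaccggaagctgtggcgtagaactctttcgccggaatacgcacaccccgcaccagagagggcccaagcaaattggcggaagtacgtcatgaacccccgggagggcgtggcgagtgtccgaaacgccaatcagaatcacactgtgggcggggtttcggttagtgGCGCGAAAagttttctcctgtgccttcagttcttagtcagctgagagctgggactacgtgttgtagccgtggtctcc
Cdk1: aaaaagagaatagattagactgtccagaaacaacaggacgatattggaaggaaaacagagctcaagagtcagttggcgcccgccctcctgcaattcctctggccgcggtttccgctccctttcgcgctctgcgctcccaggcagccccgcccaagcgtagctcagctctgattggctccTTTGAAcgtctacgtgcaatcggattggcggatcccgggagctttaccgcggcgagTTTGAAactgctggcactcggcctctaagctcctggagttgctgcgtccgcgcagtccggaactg
Kif11: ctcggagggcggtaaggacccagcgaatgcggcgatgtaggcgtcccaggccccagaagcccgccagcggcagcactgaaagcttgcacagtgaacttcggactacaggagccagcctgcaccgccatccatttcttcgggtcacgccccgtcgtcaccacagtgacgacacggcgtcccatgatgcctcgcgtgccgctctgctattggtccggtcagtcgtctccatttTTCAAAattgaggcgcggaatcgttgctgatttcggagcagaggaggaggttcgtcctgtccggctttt

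*Mcm6* rose from 39.5 and 39.1 to 125 and 77.8 CPM and *Orc1*, the largest subunit of the origin recognition complex, from 1.43 and 2.49 to 29.5 and 33.98 CPM. A match is a description of the letters, and no binding was measured in these cells.

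**Figure D3:**
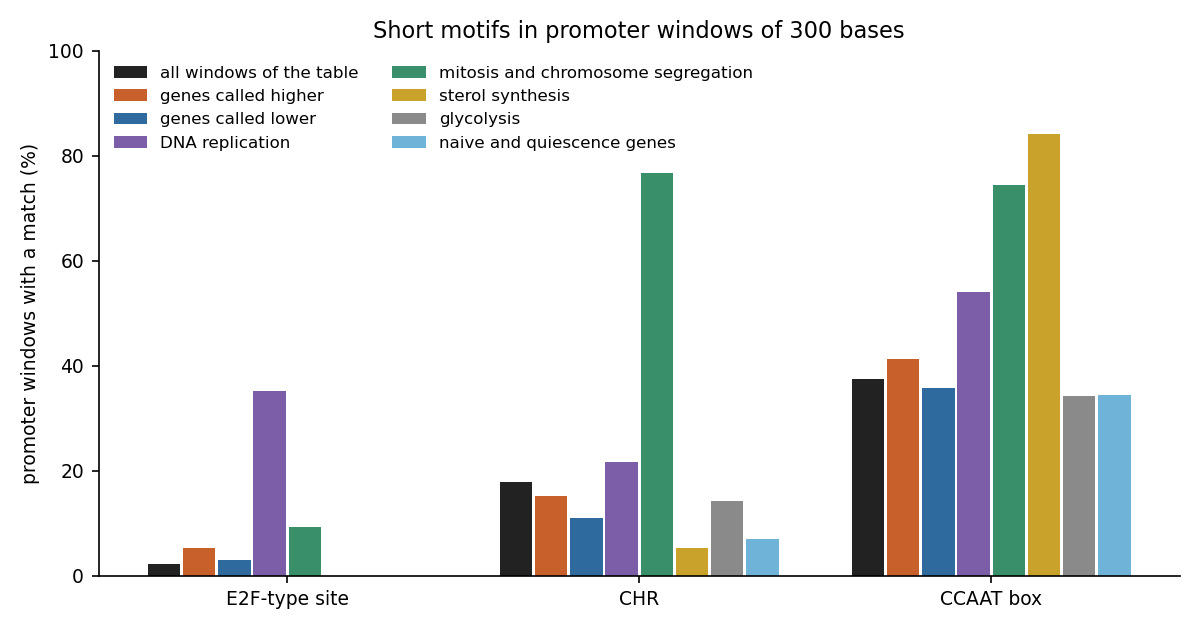
Share of RefSeq promoter windows of 300 bases that hold at least 1 match to E2F letters, to the cell cycle homology region (CHR) or to a CCAAT box, in percent, for all windows, for genes called in each direction and for 5 gene lists. The tallest bars are E2F in DNA replication (35.1%), CHR in mitosis (76.7%) and CCAAT in sterol synthesis (84.2%); a missing bar is a share of 0.

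Of all lists, glycolysis gained the most summed CPM. Of 23 tested genes, 20 rose and 1 fell (87.0% higher against 24.7%), with a median log2 fold change of 2.80. Their summed level was 3873 and 4201 CPM at day 0 and 37962 and 30735 CPM at day 5. Every step from glucose entry to lactate export had a member that rose. *Slc2a3*, the glucose transporter GLUT3, had 134 and 158 CPM at day 0 and 3884 and 3548 CPM at day 5 (log2 fold change 4.67 ± 0.13, FDR 1.04e-10), and *Slc2a1*, GLUT1, had 65.6 and 63.5 CPM at day 0 and 487 and 308 CPM at day 5. *Hk2*, the inducible hexokinase, rose from 1.61 and 1.36 to 148 and 159 CPM, while *Hk1* had 79.2 and 109.9 CPM at day 0 and 85.01 and 61.4 CPM at day 5 and did not pass the test.

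*Tpi1*, triosephosphate isomerase, rose from 44.002 and 41.6 to 1487 and 1155 CPM, and *Pgk1*, phosphoglycerate kinase, from 88.2 and 77.8 to 2042 and 1517 CPM. *Aldoc*, an aldolase best known from brain, rose from 1.97 and 0.904 to 749 and 774 CPM, the largest log2 fold change of the list (8.98 ± 0.24, or 9.69 without day 0 replicate 1). *Slc16a3*, the lactate exporter MCT4, rose from 0.715 and 0.452 to 37.04 and 32.3 CPM. *Ldhb*, the lactate dehydrogenase subunit that favours pyruvate, was the member that fell (66.003 and 56.3 to 16.05 and 30.6 CPM, log2 fold change -1.42 ± 0.25), opposite to *Ldha*. *Gapdh* had only 6.8 and 7.46 CPM at day 0 and 77.96 and 58.8 CPM at day 5. Reads that align to several places were not counted and this gene has processed copies in the genome, so its level is uncertain.

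Nuclear and mitochondrial genes for respiration moved apart. Of 73 nuclear genes for oxidative phosphorylation, 44 rose and 1 fell (60.3% against 24.7%), by small amounts: the median log2 fold change was 0.62 and the largest was 1.41. *Atp5c1*, a subunit of ATP synthase, had 497 and 431 CPM at day 0 and 862 and 822 CPM at day 5 (log2 fold change 0.86 ± 0.11). *Cox7a2l*, a factor for respiratory supercomplexes, was the member that fell (log2 fold change -0.67 ± 0.12). Of 11 tested messages encoded by the mitochondrial genome, none rose and 9 fell (81.8% against 23.6%), with a median of -1.41. *mt-Cytb*, cytochrome b, had 11022 and 9758 CPM at day 0 and 2618 and 1325 CPM at day 5 (log2 fold change -2.40 ± 0.24, FDR 5.66e-06), and was the gene of highest level per length at day 0 (9082 CPM per kilobase). *mt-Co1* had 2536 and 2361 CPM at day 0 and 1370.1 and 1182 CPM at day 5 and *mt-Nd1* had 1912 and 1627 CPM at day 0 and 931 and 727 CPM at day 5. The other 2 did not pass the test, and reads that also match nuclear copies of these genes were not counted. Tricarboxylic acid cycle genes rose in 14 of 23 and fell in 3, and *Ogdh*, 2-oxoglutarate dehydrogenase, fell most (422 and 431 to 189 and 180.2 CPM).

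Sterol synthesis rose in 22 of 23 genes with none lower (95.7% against 24.7%), with a median log2 fold change of 2.12. *Hmgcs1*, which makes the substrate of the pathway's control step, had 163 and 149 CPM at day 0 and 1125 and 1363 CPM at day 5 (log2 fold change 2.997 ± 0.14, FDR 3.55e-09). *Sqle*, squalene epoxidase, had the largest change of the list (37.9 and 26.003 to 343 and 334 CPM, 3.39 ± 0.24). *Srebf2*, the gene for the transcription factor SREBP2 that controls these enzymes, had 7.51 and 9.72 CPM at day 0 and 11.1 and 14.7 CPM at day 5 and was the member that did not pass the test, with a log2 fold change of 0.58 ± 0.30 that ran from 0.41 to 0.80 when 1 sample was left out. With the correction for GC and length it passed, and all 23 were higher. The letters TCACNCCAC, a form of the sterol regulatory element, were in 1 of 19 windows of the list (5.26%, in *Hmgcs1*), against 1.24% of all windows.

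Fatty acid synthesis rose in 10 of 14 tested genes and fell in 1. Next to *Scd1*, *Scd2* rose from 13.1 and 23.5 to 338 and 303 CPM and *Elovl6*, which lengthens palmitate, from 25.9 and 31.7 to 193 and 131 CPM. *Acss2*, which makes acetyl-CoA from acetate, fell from 33.6 and 40.9 to 15.7 and 19.3 CPM. Fatty acid oxidation was split, with 6 of 15 genes higher (40% against 24.7% of all genes) and 3 lower (20%, near the 23.6%).

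Genes for amino acid supply rose in 15 of 22 with none lower, and 14 of 20 cytosolic tRNA synthetases rose with none lower. *Asns*, asparagine synthetase, had 0.537 and 1.13 CPM at day 0 and 341 and 220.2 CPM at day 5 (log2 fold change 8.42 ± 0.33, FDR 8.74e-10). *Psat1*, of serine synthesis, rose from 68.1 and 68.96 to 595 and 445 CPM, and *Pycr1*, of proline synthesis, from 1.79 and 1.36 to 36.3 and 37.4 CPM. *Slc7a5*, the transporter for large neutral amino acids, rose from 8.05 and 7.46 to 50.1 and 28.2 CPM. *Nars*, the asparaginyl-tRNA synthetase, had 587 and 649 CPM at day 0 and 1549 and 1093 CPM at day 5. *Trib3*, a stress-induced target of ATF4, rose from 3.22 and 0.678 to 67.4 and 37.8 CPM, with *Atf4* itself at 72.3 and 70.999 CPM at day 0 and 149 and 138 CPM at day 5.

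Few genes of the ribosome itself were called. Of 78 cytosolic ribosomal protein genes, 16 rose and 6 fell (20.5% and 7.69%, both under the shares over all genes), and the summed level was 35215 and 33623 CPM at day 0 and 34630 and 35663 CPM at day 5. With samples scaled by library totals, 8 rose and 9 fell, and the median log2 fold change of 0.07 turned to -0.07. With the correction for GC and length, 9 rose and 12 fell, and the median was -0.09, so the list has no fixed direction. Ribosome biogenesis genes were split into 11 higher and 12 lower of 36 (30.6% and 33.3%, against 24.7% and 23.6% of all genes). *Npm1*, nucleophosmin, had 687 and 597 CPM at day 0 and 1634 and 1704 CPM at day 5. *Bop1*, a processing factor, had 57.8 and 63.1 CPM at day 0 and 27.9 and 25.8 CPM at day 5. Mitochondrial ribosomal protein genes rose in 27 of 76 with none lower (22 higher and 2 lower with that correction), by a median of 0.38. Proteasome subunits rose in 20 of 37 and fell in 2, and *Psmb9*, an immunoproteasome subunit, had 152 and 137 CPM at day 0 and 349.9 and 428 CPM at day 5. Chaperones rose in 19 of 36 and fell in 5. *Hsp90ab1* had 1095 and 1118 CPM at day 0 and 3219 and 2613 CPM at day 5.

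**Figure D4:**
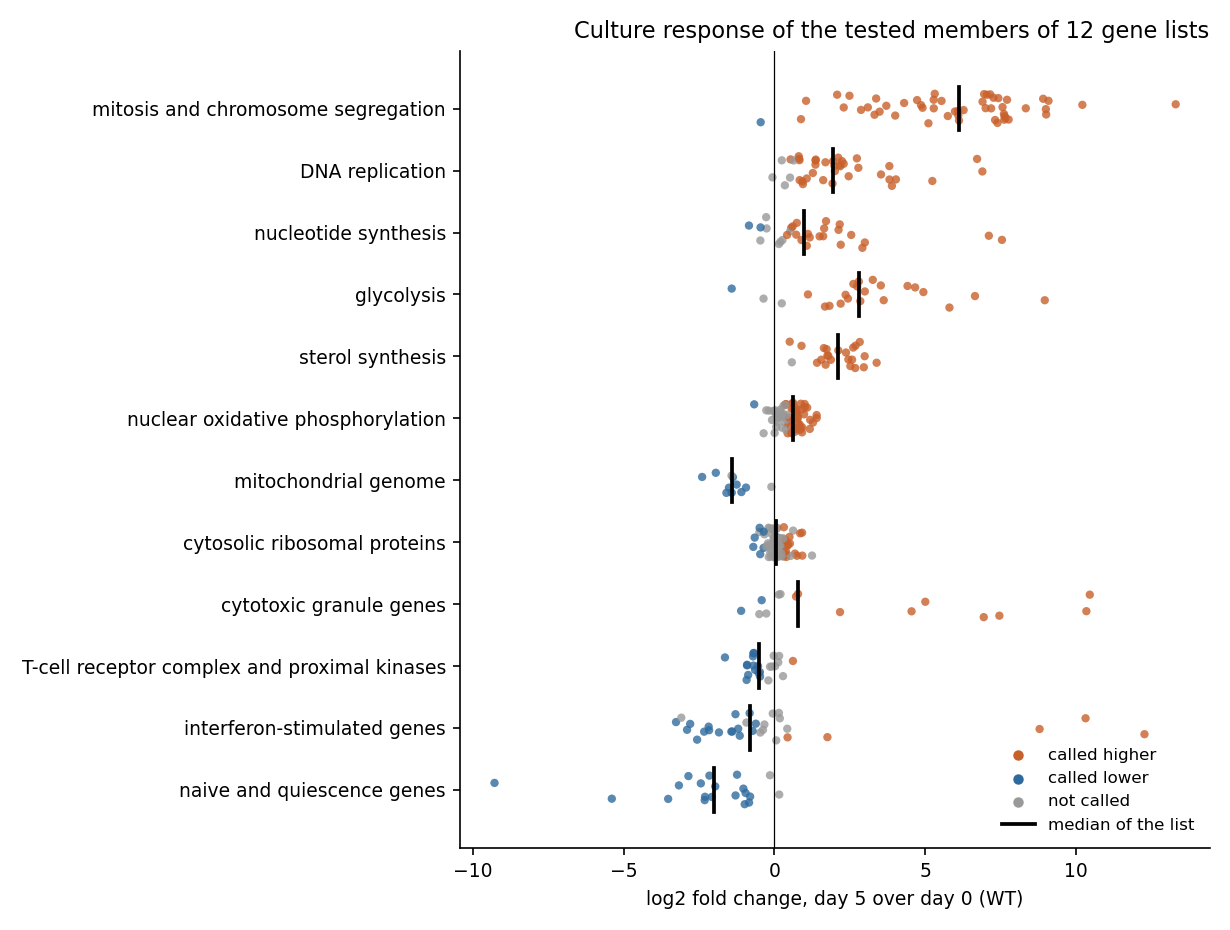
Log2 fold change (day 5 over day 0, WT) of each tested member of 12 gene lists, with orange points called higher, blue called lower and grey not called, and a black bar at the median of each list. Medians run from 6.12 for mitosis to -2.02 for naive and quiescence genes, and the cytosolic ribosomal proteins cluster around 0.07.

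Genes that mark resting and naive T cells fell in 18 of 20 with none higher (90% against 23.6%), by a median log2 fold change of -2.02. *Il7r* (GRCm38 chr15:9505788-9530176), the receptor for the survival cytokine IL-7, had 986 and 1006 CPM at day 0 and 18.3 and 29.6 CPM at day 5 (log2 fold change -5.39 ± 0.19, FDR 4.59e-10). *Tcf7*, which encodes TCF-1, had 1029.6 and 1126 CPM at day 0 and 187 and 210.4 CPM at day 5, and *Lef1* had 1339 and 1117 CPM at day 0 and 218 and 281 CPM at day 5. *S1pr1*, the exit receptor of lymph nodes, fell from 1288 and 1229.6 to 182 and 167 CPM, and *Klf2*, which maintains it, from 45.6 and 41.8 to 8.29 and 11.6 CPM. *Tsc22d3*, the glucocorticoid-induced GILZ, fell from 2435 and 2179.5 to 146 and 256 CPM, and *Btg1*, an inhibitor of proliferation, from 321 and 328 to 59.97 and 71.1 CPM. *Satb1*, the genome organizer that the series deletes, had 97.8 and 91.6 CPM at day 0 and 96.5 and 116 CPM at day 5 in WT cells and did not pass the test (log2 fold change 0.16 ± 0.15). With the correction for GC and length it was called higher (0.49), the one member of the list that was.

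Of 22 tested homing receptors, 12 fell (54.5% against 23.6% of all genes) and 6 rose (27.3% against 24.7%, near the share over all genes). *Ccr7*, which guides cells into lymph nodes, fell from 1900.0 and 1789 to 1070.0 and 1043 CPM (log2 fold change -0.80 ± 0.10). *Itgae*, the αE integrin CD103, fell from 122 and 126 to 8.29 and 2.65 CPM, and *Itga4* from 227 and 224 to 23.1 and 22.4 CPM. Among the 6 that rose, *Ccr2* went from 1.25 and 2.49 to 188 and 154 CPM and *Cxcr3* from 13.2 and 16.3 to 91.01 and 74.9 CPM.

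Of 15 tested genes of cytotoxic granules, 9 rose and 2 fell, and the members differed in kind. *Gzma*, the granzyme with tryptase activity, had 2.15 and 1.58 CPM at day 0 and 326 and 146 CPM at day 5. *Fasl*, the death ligand, had 4.29 and 0.678 CPM at day 0 and 523 and 428 CPM at day 5. *Gzmc* had 0.358 and 0 CPM at day 0 and 7.76 and 6.27 CPM at day 5, whereas *Gzmd*, *Gzme*, *Gzmf* and *Gzmg* had no more than 2 reads in any WT sample and were not tested. *Prf1* (GRCm38 chr10:61297833-61304680), perforin, which opens the target membrane, fell from 138 and 179.5 to 86.1 and 60.97 CPM (log2 fold change -1.10 ± 0.18, FDR 0.000326). Perforin and *Gzmb* thus moved in opposite directions. *Serpinb9*, which protects the killer from its own granzyme B, rose from 29.5 and 28.7 to 148 and 116 CPM.

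Transcription factors of effector and memory cells rose in 9 of 18 tested and fell in 3. *Bhlhe40* had 0.537 and 0.678 CPM at day 0 and 383 and 346 CPM at day 5, a ratio of summed counts of 613 (counting interval 281 to 1671). *Nfil3* rose from 0 and 0.904 to 143 and 94.5 CPM, and *Irf4* and *Irf8* from under 3 CPM to 32.3 and 24.6 and to 40.6 and 33.3 CPM. *Eomes* rose from 9.3 and 14.9 to 52.7 and 47.7 CPM, while *Tbx21*, encoding T-bet, stayed at low levels (0.358 and 0.226 CPM at day 0 and 2.998 and 2.89 CPM at day 5) although it was called higher. *Bcl6* fell from 45.97 and 48.4 to 4.59 and 5.3 CPM and *Tox* from 236 and 216 to 66.1 and 101 CPM.

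Surface receptors of activated cells rose in 9 of 16 (56.25% against 24.7% of all genes) and fell in 4 (25%, near the 23.6%). *Il2ra* (GRCm38 chr2:11642807-11693193), the high-affinity IL-2 receptor chain CD25, had 1.79 and 3.17 CPM at day 0 and 2131 and 1758 CPM at day 5 (log2 fold change 9.65 ± 0.31, FDR 1.67e-10). *Tnfrsf9*, the costimulatory receptor 4-1BB, had 18.1 and 13.3 CPM at day 0 and 3133 and 2814 CPM at day 5. *Cd69*, an early activation marker, had 894 and 838 CPM at day 0 and 741 and 620.0 CPM at day 5 and did not pass the test (log2 fold change -0.35 ± 0.14). It was called lower under 5 of the alternatives: scaling by library totals, no filter on low counts, a minimum of 5 CPM, the replicate block, and without day 5 replicate 1 (-0.46). *Cd44*, which marks antigen-experienced cells, rose from 11.3 and 5.2 to 90.5 and 103 CPM. Inhibitory receptors divided into 8 higher and 4 lower of 13 tested. *Ctla4* rose from 3.22 and 2.71 to 295 and 272 CPM, *Entpd1*, encoding CD39, from 3.22 and 1.13 to 143 and 113 CPM and *Tigit* from 1.43 and 1.81 to 42.2 and 34.9 CPM, whereas *Cd96* fell from 830.5 and 801 to 316 and 317 CPM and *Btla* from 145 and 135 to 65.1 and 75.7 CPM. *Pdcd1*, encoding PD-1, had 5.01 and 9.04 CPM at day 0 and 8.29 and 3.86 CPM at day 5 and did not pass the test. *Lag3* had no count at day 0 and 0.882 and 2.17 CPM at day 5, and was not tested.

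Of 28 listed cytokine genes, 15 passed the count filter and were tested. Of these, 11 rose and 1 fell. Their median log2 fold change was 3.52, or 3.23 with genes absent at day 0 set to their lower bound. Members near 0 at day 0 passed the filter only through their level at day 5, which raises the share and the median. The summed level of the list went from 690 and 739 CPM at day 0 to 1179 and 825 CPM at day 5. Several members, such as *Il24* (0.179 and 0 to 11.3 and 10.6 CPM), remained at low levels. *Lta*, lymphotoxin α, had 28.8 and 26.9 CPM at day 0 and 552 and 296 CPM at day 5. *Ccl5* rose from 16.3 and 10.9 to 199 and 116 CPM and *Tnf* from 3.58 and 2.94 to 42.2 and 33.5 CPM. *Il10* had no count at day 0 and 4.23 and 3.61 CPM at day 5. *Il16* fell from 529 and 587 to 209 and 219 CPM. Cytokine receptors were evenly split at 9 higher and 8 lower of 23. *Il12rb2*, the inducible IL-12 receptor chain, rose from 3.58 and 3.17 to 519.6 and 387 CPM (40.04% of its exon length lies within exons of the other strand). *Il6ra* and *Il6st*, the IL-6 receptor chains, fell from 34.9 and 42.7 to 1.23 and 1.45 CPM and from 195 and 183 to 21.9 and 18.8 CPM.

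The T-cell receptor complex fell in 14 of 23 genes and rose in 1 (60.9% lower against 23.6%), by a median of -0.52, far less than the quiescence genes. *Cd8b1* fell from 4057 and 3663 to 1279 and 1199 CPM (log2 fold change -1.64 ± 0.11, FDR 7.83e-08), more than *Cd8a* (-0.87 ± 0.11). *Cd3e* fell from 1064 and 1067 to 568 and 569 CPM, while *Cd3g* did not pass the test. *Lck*, the kinase that starts signalling, had 3701 and 3846 CPM at day 0 and 2873 and 2536 CPM at day 5. *Themis* was the member that rose (617 and 645 to 969.9 and 964 CPM). Of 22 tested brakes on receptor signalling, 5 rose (22.7%, near the 24.7% of all genes) and 9 fell (40.9% against 23.6%). *Cish*, a feedback inhibitor induced by STAT5, rose from 14.7 and 14.7 to 194 and 151 CPM and *Socs2* from 0.358 and 0.226 to 26.98 and 41.4 CPM, and *Cd6* and *Dgka* fell (log2 fold changes -2.25 ± 0.12 and -1.76 ± 0.13).

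Immediate early genes, the rapid targets of receptor signals, fell in 8 of 18 tested (44.4% against 23.6% of all genes). They rose in 4 (22.2%, near the 24.7% of all genes). The list median of 0.07 turned to -0.07 under scaling by library totals. *Egr2* fell from 56.9 and 48.4 to 1.94 and 0.964 CPM, *Nr4a1* from 11.6 and 20.1 to 1.59 and 3.37 CPM and *Nfkbia* from 161 and 155 to 27.2 and 49.4 CPM. *Dusp6*, a MAP kinase phosphatase, rose from 42.03 and 38.7 to 106 and 120.0 CPM. In the Notch list, 5 of 10 tested genes fell (50%) and 2 rose (20%, near the share over all genes). The decreases were led by *Dtx1* and *Dtx4*. *Dtx4*, another Deltex gene, had 14.3 and 13.3 CPM at day 0 and 0.529 and 0.482 CPM at day 5. *Rbpj*, the DNA-binding partner of Notch, rose from 30.8 and 31.2 to 96.7 and 66.7 CPM.

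Interferon-stimulated genes fell in 16 of 31 tested and rose in 5, and the 5 included some of the largest increases in the data. *Ifit1*, which binds foreign RNA, had 201 and 276 CPM at day 0 and 51.3 and 10.6 CPM at day 5 (log2 fold change -2.90 ± 0.46, FDR 0.000239), and its value was -4.46 without day 5 replicate 1 and -2.18 without day 5 replicate 2. *Irf7* fell from 111 and 129 to 42.3 and 23.9 CPM and *Oasl1* from 13.8 and 15.1 to 2.47 and 0.241 CPM. Against this, *Ifitm1*, *Ifitm2* and *Ifitm3* rose from at most 2 reads per sample, with *Ifitm2* at 323 and 245 CPM and *Ifitm3* at 204 and 80.2 CPM at day 5, and *Isg20* rose from 49.5 and 45.7 to 221 and 101 CPM. *Ifitm2* shares 40.9% of its exon length with other genes of its strand. The 2 day 5 samples differed in several of these genes: *Isg15* had 51.7 and 52.5 CPM at day 0 and 44.1 and 9.16 CPM at day 5 and *Ifit3* had 61.4 and 91.1 CPM at day 0 and 16.6 and 4.34 CPM at day 5, lower in replicate 2. *Isg15* did not pass the test, but was called lower without day 5 replicate 1 (-2.48 on the log2 scale, against -0.21 without day 5 replicate 2), without a filter on low counts (-0.96) and with the replicate block (-1.20). Of 12 class I presentation genes, 4 were higher and 3 lower (33.3% and 25%, against 24.7% and 23.6% of all genes). Under scaling by library totals 1 was higher and 3 lower. The list median of -0.02 turned to 0.02 with DESeq2 size factors. *B2m*, the light chain shared by class I molecules, had 6409 and 5211 CPM at day 0 and 7228 and 8202 CPM at day 5 (log2 fold change 0.41 ± 0.13, FDR 0.0193), a rise that became -0.050 with the correction for GC and length and was not called under scaling by library totals (0.28) or without day 0 replicate 2 (0.27) or day 5 replicate 2 (0.35), and *H2-K1* fell from 2252 and 2363 to 1209.9 and 1464 CPM.

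Annexin, S100 and cytoskeletal genes rose in 23 of 29 and fell in 1. *Anxa2* had 23.97 and 46.1 CPM at day 0 and 2862 and 2216 CPM at day 5, *Lgals1*, galectin-1, had 73.3 and 76.2 CPM at day 0 and 1733 and 1540.3 CPM at day 5 and *S100a6* had 0.894 and 0.678 CPM at day 0 and 739 and 609 CPM at day 5. *Capg*, which caps actin filaments, rose from 33.8 and 30.5 to 1112 and 964 CPM, and *Stmn1*, which destabilises microtubules, from 12.9 and 16.5 to 249.9 and 241 CPM. *Anxa11* was the member that fell (11.6 and 18.8 to 2.47 and 3.37 CPM). In the zinc list, 4 of 11 rose and 2 fell: *Mt2* followed *Mt1* from no count to 12.2 and 9.4 CPM (73.5% of its exon length lies within exons of the other strand), while *Slc30a1*, a zinc exporter that shares metal control with them, fell from 5.9 and 6.56 to 0.353 and 0.723 CPM.

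Of 12 tested genes of the Bcl2 family, which holds both promoters and inhibitors of cell death, 5 rose and 1 fell. *Bcl2* rose from 383 and 429.8 to 1271 and 1316 CPM and *Bcl2l1*, encoding BCL-XL, from 10.4 and 13.1 to 26.98 and 31.6 CPM, and *Pmaip1*, the death promoter NOXA, rose from 25.8 and 22.8 to 77.6 and 174 CPM. *Mcl1* fell from 203 and 196 to 67.7 and 55.2 CPM. Gimap GTPases, which support lymphocyte survival, fell in 4 of 8 and rose in 1. Receptors of the NK lectin type rose in 4 of 5 tested and fell in 1, and 9 of the 14 listed were too low to test. *Klrk1*, encoding NKG2D, rose from 0.894 and 0.904 to 103 and 119 CPM and *Klrd1*, encoding CD94, fell from 144 and 158 to 101 and 102 CPM. Replication-dependent histone genes could not be followed: of 69 listed, 37 had no count in any WT sample and 11 were tested, of which 5 rose and 3 fell.

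Markers of other cells were low on both days with named exceptions, and their part in the results above was not tested. Of 11 B-cell markers, *Ms4a1*, *Pax5* and *Igkc* had at most 1.13 CPM in any WT sample, yet *Ighm*, the μ heavy chain, had 2070.2 and 2094 CPM at day 0 and 1392 and 1400.3 CPM at day 5 and *Cd79b* had 122 and 118 CPM at day 0 and 66.7 and 68.7 CPM at day 5, and the 4 tested members all fell. The summed B-cell level was 2268 and 2279 CPM at day 0 and 1470 and 1478 CPM at day 5. Of 11 myeloid markers, *Cd14*, *S100a8* and *S100a9* were at 0 in all 4 samples, and the sum was 13.6 and 23.3 CPM at day 0 and 35.1 and 41.9 CPM at day 5, most of it *Cd68* (2.68 and 3.17 CPM at day 0 and 30.7 and 37.1 CPM at day 5), which encodes a lysosomal protein. Of 8 dendritic-cell markers, summed to 16.6 and 18.8 CPM at day 0 and 156 and 142 CPM at day 5, *H2-Ab1* rose from 1.25 and 0.452 to 149.6 and 133 CPM, while its class II partner *H2-Aa* went from 2.15 and 2.04 to 0.176 and 0.241 CPM, a call that needed all 4 samples (-2.99 to -3.39 on the log2 scale when 1 was left out), and *Itgax* and *Flt3* were near 0.

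The 4 NK-cell markers summed to 8.41 and 4.52 CPM at day 0 and 12.7 and 13.5 CPM at day 5, and *Ncr1* had at most 0.715 CPM. *Cd4* had at most 0.964 CPM, and the 4 markers of CD4+ and regulatory T cells summed to 11.8 to 27.0 CPM, most of it *Foxp3*, at 9.12 and 10.4 CPM at day 0 and 23.8 and 9.64 CPM at day 5. *Foxp3* did not pass the test, but was called higher without a filter on low counts, with the correction for GC and length and without day 5 replicate 2. Its log2 fold change of 0.82 ran from 0.011, without day 5 replicate 1, to 1.32, without day 5 replicate 2. Of the γδ T-cell constant genes, *Tcrg-C1*, *Tcrg-C2* and *Tcrg-C4* rose and *Trdc* fell: *Tcrg-C2* had 3.04 and 3.17 CPM at day 0 and 166 and 167 CPM at day 5 and *Trdc* had 53.3 and 81.9 CPM at day 0 and 27.3 and 45.3 CPM at day 5. The call of *Trdc* was lost without day 0 replicate 2 (-0.56) or day 5 replicate 1 (-0.55). The γ constant genes resemble each other, and reads that align to several places were not counted, so single values are uncertain. Erythroid and platelet markers summed to at most 2.26 CPM per sample. Of 5 stromal and endothelial markers, *Pecam1*, which T cells also express, was the one above 2 CPM. *Xist* was present in all 4 samples, and the 4 Y-linked genes listed had no count.

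The same comparison can be made in the cells labelled KO, which share no sample with the WT comparison. *Satb1* itself had 144 and 125 CPM in the samples labelled KO at day 0, no lower than the 97.8 and 91.6 CPM of WT, and 56.5 and 62.3 CPM at day 5 against 96.5 and 116 CPM in WT. Gene-level counts do not separate the exons that a conditional allele removes, so the day 0 values do not check the labels. The response labelled KO called 6325 genes (50.2%), and 5883 of the 6081 genes called in WT had an estimate of the same sign in KO, whether or not it was called there. The response itself differed between genotypes for 20 of 12597 genes (0.159%) by the edgeR test of the difference at FDR under 0.05, 10 with a more positive and 10 with a more negative change in KO, and 1562 genes had an unadjusted p under 0.05. These counts rested on single samples: the 20 genes became 0 without WT day 0 replicate 1, 1 without WT day 0 replicate 2 and 41 without WT day 5 replicate 1. Of the genes named above, *Ctla4* rose less in KO (log2 fold change 3.08 against 6.56), where it stood at 40.3 and 21.7 CPM before culture against 3.22 and 2.71 CPM in WT, and reached 276 and 262 CPM against 295 and 272 CPM at day 5. *Anxa2* and *Klrk1* showed the same order, with higher levels in KO at day 0. *Tcrg-C2* also rose less in KO (log2 fold change 3.88 against 5.74) from a higher level at day 0. *Capg* rose more in KO, from a lower level at day 0. *Satb1* fell by 1.18 on the log2 scale in KO against a change of 0.16 in WT. A response that did not pass this test is not shown to be equal in both genotypes.

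**Figure D5:**
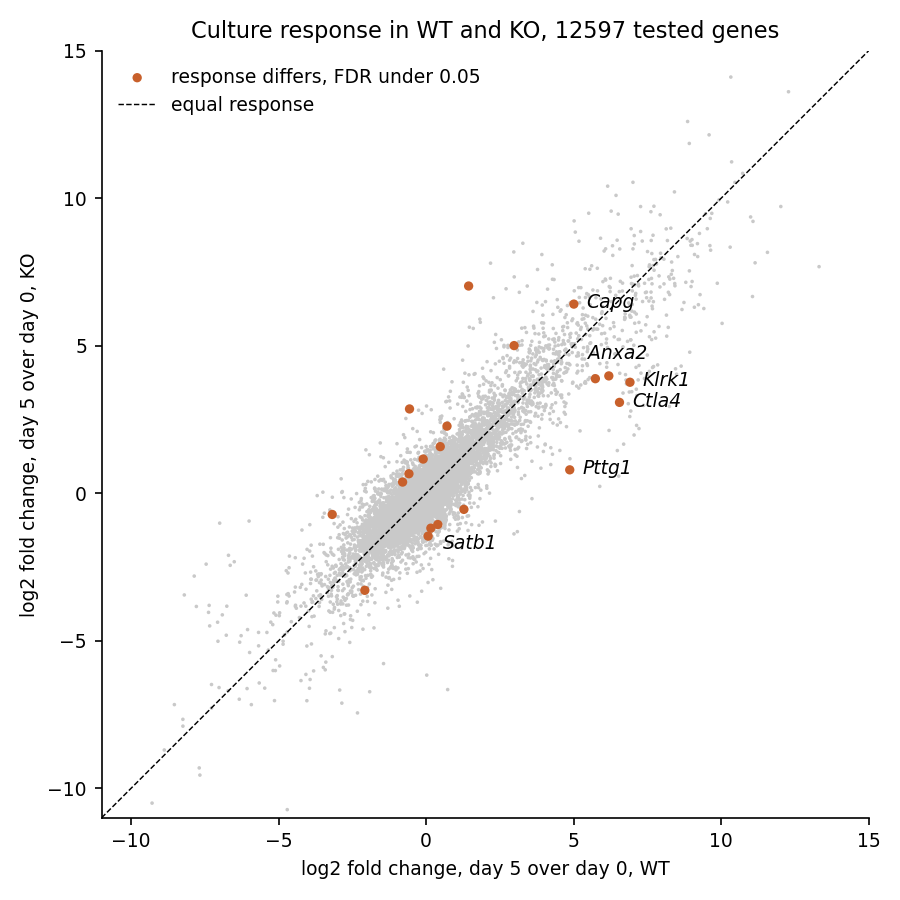
Log2 fold change of day 5 over day 0 in WT (horizontal) and KO (vertical) for all 12597 tested genes, as grey points around the dashed line of equal response; orange points are the 20 genes whose response differed. *Ctla4*, *Klrk1*, *Anxa2* and *Pttg1* lie below the line and *Capg* above it.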

How the data were processed

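RNA-seq gene counts of 8 samples were used: CD8+ T cells labelled WT or KO, at day 0 or day 5, with 2 samples per group. Per the submitters' processing notes, reads were aligned with HISAT2 2.1.0 to mm10 (GRCm38) and counted with HTSeq 0.11.1, and the authors deposited whole-number counts per gene symbol without normalization. The strand setting and the annotation are not given in the sources used here, and the paper linked to the series was not taken as a source because it describes another experiment. Between 22.2% and 23.99% of the records of a WT sample were assigned to a gene. Lines for reads without a gene (27.6% to 30.9% without a feature, 33.5% to 37.4% aligned to several places) were left out of library sizes and tests. WT samples held 5334783 and 4223381 (day 0) and 6180044 and 4170126 (day 5) gene counts.

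Counts were filtered with filterByExpr (minimum count 10), scaled by TMM and fitted in edgeR 4.0.16 (R 4.3.3) with a quasi-likelihood model over all 8 samples and 4 groups. Genes with a false discovery rate (Benjamini-Hochberg over 12597 genes) under 0.05 were called. Levels are CPM with TMM factors, and levels between genes were compared per kilobase of exon. Where a group had no count, the fold is a lower bound against 3 counts per sample. Where a group had some counts but no more than 3 in any sample, the ratio of sums has an exact counting interval at 95%. Intervals cover counting error only. Genes were named as the 10 largest log2 fold changes and the 5 largest CPM differences each way, and as examples of lists. Some listed genes are not reported here by name. The members and lists were chosen with earlier results of these data known. Of 48321 symbols, 46394 matched the GRCm38 annotation directly and 46973 with older names. In simulated counts with 200 changed genes, 0.5%, 53.5% and 91.5% were recovered at 1.5-fold, 2-fold and 4-fold. Far more genes were called in the data, so these shares do not give the power of this comparison. Alternatives covered scaling, filters, tests (DESeq2 1.42.0), a GC and length offset, thinned counts, a replicate block and leaving out each WT sample. Same-numbered samples are not stated to share an animal.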

Additional observations from a re-analysis of the deposited data

Results flagged for a closer look

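The response to culture differed between genotypes, by the edgeR test of the interaction, in the following genes of the lists. The interaction is the log2 fold change in cells labelled KO minus that in WT, and each of these values was drawn from 2 samples per group. *Satb1* differed by -1.34 (-1.18 in KO, 0.16 in WT; FDR 0.0269). *Ctla4* differed by -3.47 (3.08 in KO, 6.56 in WT; FDR 0.00794). *Klrk1* differed by -3.15 (3.76 in KO, 6.91 in WT; FDR 0.0113). *Anxa2* differed by -2.21 (3.98 in KO, 6.19 in WT; FDR 0.0113). *Capg* differed by 1.40 (6.41 in KO, 5.01 in WT; FDR 0.0113). *Pttg1*, securin, differed by -4.07 (0.80 in KO, 4.87 in WT; FDR 0.0168). It had 186 and 118 CPM in the day 0 samples labelled KO against 24.1 and 20.8 CPM in WT, and at day 5 125 and 407 CPM against 579 and 742 CPM, so most of the difference lay at day 0 and the day 5 samples labelled KO stood apart from each other. The groups held too few samples to look for outlying samples within them.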

How the results depend on the processing

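The WT culture response was called for 6081 genes, and for 5179 to 6228 genes under the other settings that kept all WT samples and tested against no change. A test against a 2-fold change called 2068 genes, 1328 higher and 740 lower. Leaving out 1 WT sample at a time gave 4630 to 5282 called genes (2487 to 2969 higher, 2143 to 2313 lower). With DESeq2 size factors the calls split into 3258 higher and 2778 lower. The number of genes whose response differed between genotypes was 20, against 154 without a filter on low counts, 139 by DESeq2, 11 after correcting for GC and length and 32 with counts thinned to the same total. It ranged from 0 to 41 when 1 WT sample was left out, and no KO sample was left out.
Counted over the genes named in the text and every setting, 61 calls were lost, 17 were gained and 4 values changed sign. The sign changes were in 3 genes. *B2m* and *Tmsb4x*, both called higher, changed sign after correcting for GC and length (-0.050 and -0.046). *Pdcd1*, not called, ran from -0.81 to 0.33 when 1 sample was left out.
With the replicate number as a block, 5999 genes were called (3081 higher, 2918 lower) and 29 differed between genotypes. The deviations of same-numbered samples correlated at 0.118 over the tested genes in the 2 pairs. Without a reference value for paired samples, this cannot show whether same-numbered samples share an animal or a batch. The labels do not state a pairing, and none was assumed in the main test. In simulated counts at these depths 53.5% of 2-fold changes were called. Only 200 genes were changed there, against 6081 called in these data, so the share does not carry over to this comparison. A gene that was not called is not shown to be unchanged.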
